A study of Mus musculus with 6 samples.

Results

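The collagen genes and the genes for the enzymes that modify collagen were followed in RNA of mouse hearts. They were taken from the deposited count table by symbol, as every row named for a collagen chain and the rows of the prolyl 4-hydroxylase alpha subunits, the lysyl hydroxylases, the lysyl oxidases and the collagen chaperone Serpinh1. This gave 56 of the 30619 genes in the table, of which 44 encode collagen chains (11 fibrillar, 8 of the basement membrane and 25 of other types) and 12 encode enzymes or the chaperone. Whole hearts of mixed cell types of stage E12.5 were sequenced as poly(A) RNA in 6 libraries. The 3 control libraries carry the genotype label WT. The other 3 are titled CKO, for a conditional knockout of Trim28, the gene of a chromatin co-repressor, although their genotype label reads TRIM28 knockdown. The sources used here do not give the strain, the Cre driver, the deleted exons or the number of hearts in a library. Nothing in them says that replicates came from separate animals, so the p-values reflect only how far these samples spread, which may be technical.

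Collagens are trimers of chains that wind into a triple helix. Fibrillar collagens (types I, II, III, V and XI) form the cables of connective tissue, collagen IV forms the sheet of the basement membrane, and fibril-associated, beaded and transmembrane types link these to each other and to cells. Inside the cell, prolyl 4-hydroxylases modify prolines so that the helix is stable, lysyl hydroxylases modify lysines that later carry cross-links and sugars, and the chaperone HSP47 (Serpinh1) holds the folded trimer on its way out. Outside the cell, lysyl oxidases start the cross-links. In the embryonic heart, collagens are made mainly by the mesenchyme of the endocardial cushions, by cells derived from the epicardium and by the endocardium.

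Total counts ranged from 34400841 to 39763233 per library. Trim28 measured 305, 391 and 443 CPM (counts scaled to a library of 1000000, with sizes adjusted by edgeR's TMM method) in controls 1, 2 and 3 and 172, 314 and 165 CPM in CKO 1, 2 and 3, and its log2 fold change came to -0.81 (SE 0.34, adjusted p = 0.339). The library labelled CKO 2 lay within the range of the controls, so its label is not borne out by this gene, and every direction given for CKO rests on the labels. A ribosomal RNA row took 0.126% to 0.522% of counts in controls and 0.563% to 0.790% in CKO. Summed Y-linked genes measured 80.4, 0.026 and 122 CPM in controls 1, 2 and 3 and 102 to 209 CPM in CKO, so control 2 stood apart. Heart muscle markers were abundant in all 6 libraries (10 genes, at least 19838 CPM summed), while 7 markers of liver and lung epithelium summed to at most 1.55 CPM. In these bulk samples, fewer cells of a type and less RNA per cell cannot be told apart.

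Of the 6 hydroxylase genes, P4ha1, P4ha2 and Plod1 were called higher in CKO hearts, as were 5 collagens of other types, whereas no fibrillar or basement membrane collagen was called. Of the 56 genes, 52 passed the filter on low counts and were tested. At an adjusted p under 0.05, 8 were called higher (5 collagens and 3 enzymes) and 2 lower (both collagens), or 19.2% of those tested. Among all 17557 tested genes, 4.1% were called, 3.03% higher and 1.07% lower. The calls fell on 7 of 21 tested collagens of other types and 3 of 12 enzyme and chaperone genes, and on 0 of 11 fibrillar and 0 of 8 basement membrane genes. At an unadjusted p under 0.05 in edgeR the fibrillar class had 1 of 11 genes and the basement membrane class 3 of 8. The other types had 14 of 21 and the enzyme class 5 of 12, beside 3126 of all 17557 tested genes. Groups were fully separate, every CKO library above or every one below the controls, for 18 of the 52 tested genes (34.6%), beside 22.1% of all tested genes. Median log2 fold changes were 0.01 in the fibrillar class, -0.09 in the basement membrane class, 0.00 in the other types and 0.15 in the enzyme class, beside 0.00 over all tested genes. Whether the classes differ from each other was not tested.

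**Figure D1:**
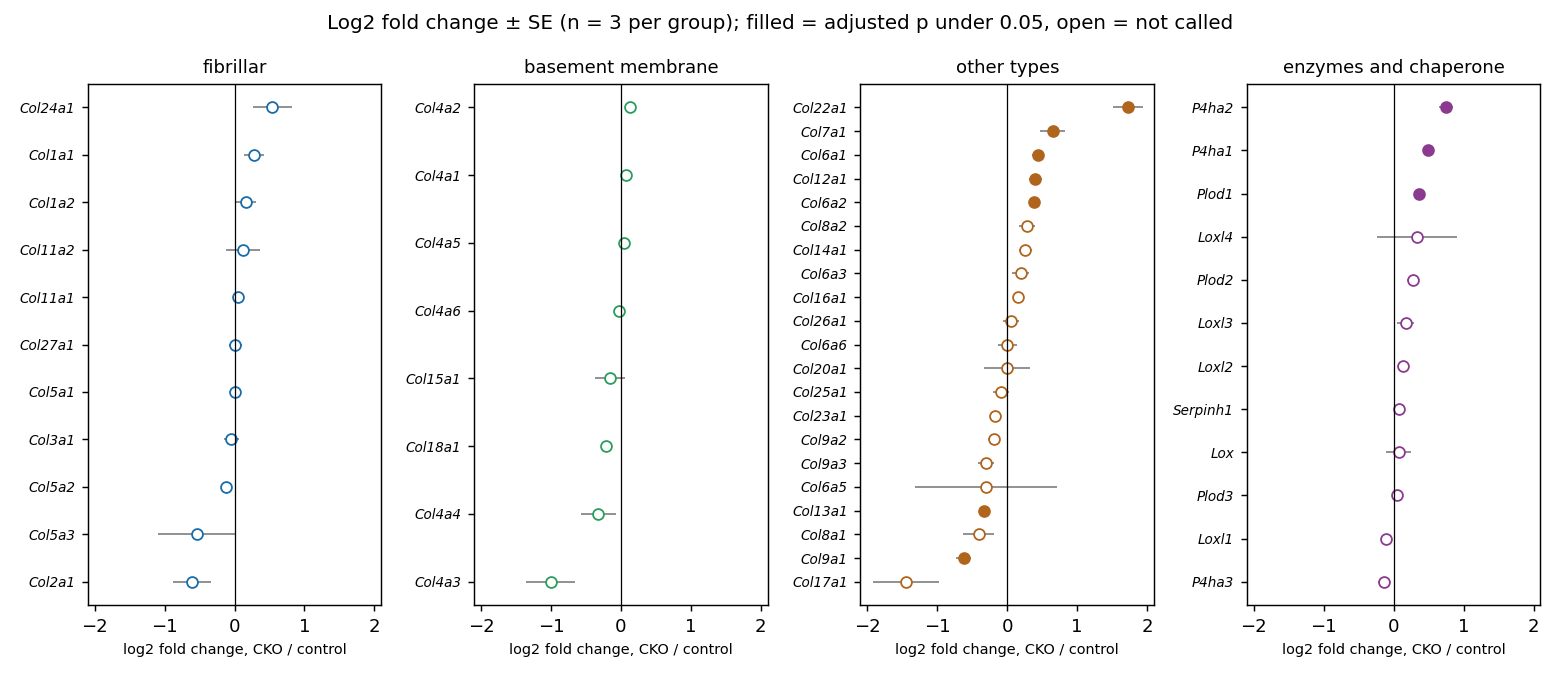
Log2 fold change of CKO over control (horizontal axis) with its standard error for each of the 52 tested genes, in 1 panel per class; filled points were called at an adjusted p under 0.05 and open points were not. The filled points lie in the panels of other types and of enzymes, and Col22a1 at 1.72 stands farthest to the right.

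P4ha1 and P4ha2, of the prolyl 4-hydroxylases, had the largest changes among the called enzymes. P4ha1 and P4ha2 each encode an alpha subunit, the catalytic part of the enzyme. Both are known targets of the hypoxia-inducible factor HIF, as are Plod1 and Plod2. These are not a full list of the HIF targets among the 56 genes, and whether such targets changed together was not tested. P4ha1 (ENSMUSG00000019916.14, mm10 chromosome 10, 59323296 to 59373304) measured 90.4, 96.0 and 106 CPM in controls 1, 2 and 3 and 128, 147 and 135 CPM in CKO 1, 2 and 3. All CKO values lay above all control values, and the log2 fold change was 0.48 (SE 0.07, adjusted p = 0.000266). P4ha2 (chromosome 11, 54100095 to 54131665) measured 46.8, 50.2 and 54.6 CPM in controls and 73.4, 98.9 and 83.4 CPM in CKO. The groups again did not overlap, the library labelled CKO 2 was the highest, and the log2 fold change was 0.75 (SE 0.10, adjusted p = 0.00125). P4ha3, the third alpha subunit gene, measured 36.8, 34.5 and 40.6 CPM in controls and 34.7, 36.5 and 30.3 CPM in CKO, with overlapping groups and a log2 difference of -0.14 (adjusted p = 0.420). P4ha1 and P4ha2 kept their calls whichever of the 6 libraries was dropped, and also when the ribosomal RNA share entered the fit as a covariate (adjusted p = 0.00687 and 0.0119). No other gene of the 56 was called with that covariate, which was higher in every CKO library than in every control, so the share and the group cannot be told apart.

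Among the lysyl hydroxylases, Plod1 was called. Plod1 (chromosome 4, 147909753 to 147936767) measured 79.5, 82.0 and 86.3 CPM in controls and 112, 96.1 and 109.5 CPM in CKO. Its log2 fold change was 0.36 (SE 0.06, adjusted p = 0.00273), the call stood whichever of the 6 libraries was dropped, and was lost when the ribosomal RNA share entered the fit (adjusted p = 0.115). Plod2, which hydroxylates lysines in the telopeptides at the ends of collagen chains, measured 99.97, 106 and 122 CPM in controls and 121, 142 and 132 CPM in CKO. The lowest CKO value lay just under the highest control value, and the log2 fold change of 0.27 (SE 0.07) missed the threshold (adjusted p = 0.0546), while DESeq2 called it (adjusted p = 0.0188). Plod3, which also adds glucose to hydroxylysine, measured 78.0, 80.2 and 88.7 CPM in controls and 85.2, 85.1 and 86.0 CPM in CKO (log2 fold change 0.05, adjusted p = 0.721).

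The bases just before the transcript start of the hydroxylase genes are shown because these genes changed unequally. For 42 of the 56 genes the RefSeq table (GRCm38.p6, which is mm10) held a promoter, and Plod2 was not among them. The 250 bases before the start, on the gene's own strand, were searched on both strands for ACGTG and GCGTG, the core that HIF binds. A match on both strands at CACGTG can overlap. Matches are in capitals, so CACGT and CACGC are the core read on the opposite strand.
P4ha1, chr10:59323046-59323295, plus strand: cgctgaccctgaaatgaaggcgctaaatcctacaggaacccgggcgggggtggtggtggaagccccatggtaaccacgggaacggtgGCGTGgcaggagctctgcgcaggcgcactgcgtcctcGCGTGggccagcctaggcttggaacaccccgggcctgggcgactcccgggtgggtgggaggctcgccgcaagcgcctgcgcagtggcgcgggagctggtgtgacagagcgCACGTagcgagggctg
P4ha2, chr11:54100674-54100923, plus strand: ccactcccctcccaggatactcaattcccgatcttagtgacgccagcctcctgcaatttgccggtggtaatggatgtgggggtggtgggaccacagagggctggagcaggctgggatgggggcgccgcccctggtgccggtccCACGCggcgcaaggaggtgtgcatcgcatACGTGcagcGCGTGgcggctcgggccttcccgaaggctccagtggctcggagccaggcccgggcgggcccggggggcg
Plod1, chr4:147936777-147937026, minus strand: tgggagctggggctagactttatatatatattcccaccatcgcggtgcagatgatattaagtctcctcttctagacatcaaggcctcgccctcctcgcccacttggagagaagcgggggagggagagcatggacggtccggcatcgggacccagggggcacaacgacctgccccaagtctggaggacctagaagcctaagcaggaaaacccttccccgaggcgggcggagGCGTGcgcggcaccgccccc
Plod3, chr5:136986769-136987018, plus strand: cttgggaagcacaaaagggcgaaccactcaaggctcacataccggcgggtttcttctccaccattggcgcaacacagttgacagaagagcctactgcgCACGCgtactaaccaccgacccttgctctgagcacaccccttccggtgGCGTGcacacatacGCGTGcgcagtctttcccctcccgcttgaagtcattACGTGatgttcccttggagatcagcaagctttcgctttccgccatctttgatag
P4ha3, chr7:100285270-100285519, plus strand: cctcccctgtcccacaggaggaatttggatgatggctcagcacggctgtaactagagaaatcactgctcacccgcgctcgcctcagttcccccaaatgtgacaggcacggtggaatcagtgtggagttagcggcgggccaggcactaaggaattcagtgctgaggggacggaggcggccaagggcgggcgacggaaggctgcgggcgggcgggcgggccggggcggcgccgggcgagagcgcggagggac
The window of P4ha1 held 3 matches, which began 163, 126 and 16 bases before the start, and that of P4ha2 held 3, at 107, 78 and 69 bases. The P4ha2 window precedes a RefSeq transcript that starts at 54100924, so it lies inside the gene span given above and not before the gene. Plod1 had 1 match, 20 bases before the start. Plod3, which was not called, had 4, and P4ha3 had none in this window. At least 1 match was present in 38.6% of all 32851 windows, and at least 3 in 6.58% of them. Of the 42 member genes, 17 had a match in at least 1 of their windows. That is a count of genes, so it is not the same measure as the share of windows. These letters are a description and do not show that a factor binds there.

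Lysyl oxidase genes and the chaperone gene were not called. Loxl2, whose enzyme also acts on collagen IV, measured 307, 313 and 328 CPM in controls and 346, 359 and 337 CPM in CKO. These groups did not overlap, and the log2 fold change was 0.14 (SE 0.05, adjusted p = 0.152). Loxl1, needed for elastic fibres, was at -0.12 (adjusted p = 0.328). Lox, the founding member of the family, ranged from 63.9 to 90.1 CPM in controls and from 74.5 to 98.1 CPM in CKO (log2 fold change 0.07, SE 0.17). Loxl3 was at 0.17 and Loxl4, at under 1 CPM in every library, at 0.33 with an SE of 0.57. Serpinh1 was the most abundant of the 56 genes per length, at 596 CPM per kilobase of transcript in controls, and measured 1323, 1375 and 1370 CPM in controls and 1561, 1384 and 1357 CPM in CKO. CKO 1 and CKO 2 lay above all controls, CKO 2 by a small margin, and CKO 3 did not, and the log2 fold change was 0.08 (SE 0.06, adjusted p = 0.489).

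Other genes of collagen folding, secretion and processing showed no call. This list of 31 tested genes holds, for example, the beta subunit of prolyl 4-hydroxylase, prolyl 3-hydroxylases and the procollagen proteinases, and its median log2 fold change was 0.04. edgeR, DESeq2 and limma-voom each called 0 of them, and at an unadjusted p under 0.05 in edgeR 2 were higher and 1 lower. The smallest adjusted p values were those of the proteinase gene Tll1 (0.101), P3h2 (0.144) and Adamts14 (0.237). Of 20 genes listed as hypoxia-induced and outside the 56, 10 were called higher and none lower (median 0.32). Of all tested genes, 3.03% were called higher and 1.07% lower. The 10 called hypoxia genes included Bnip3, a mitophagy gene (log2 fold change 0.56, adjusted p = 3.56e-05). Also called were the prolyl hydroxylases of HIF itself, Egln1 (0.41, adjusted p = 0.000388) and Egln3 (0.58, adjusted p = 0.00783). Adm, which encodes the vasodilator adrenomedullin, was at 1.09 (adjusted p = 0.000552). These genes and Ddit4 stayed called whichever of the 6 libraries was dropped. The rest of the called hypoxia genes depended on single libraries. Ldha passed in 3 of the 6 leave-one-out fits, Pfkfb3, Higd1a and Ero1l in 2 each, and Pdk1 in 1. Those not called included Slc2a1 (0.03, adjusted p = 0.967) and the genes of HIF itself, Hif1a (0.07) and Epas1 (-0.20). Both hypoxia genes and hydroxylases were measured in the same libraries, and a link between them was not tested.

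**Figure D2:**
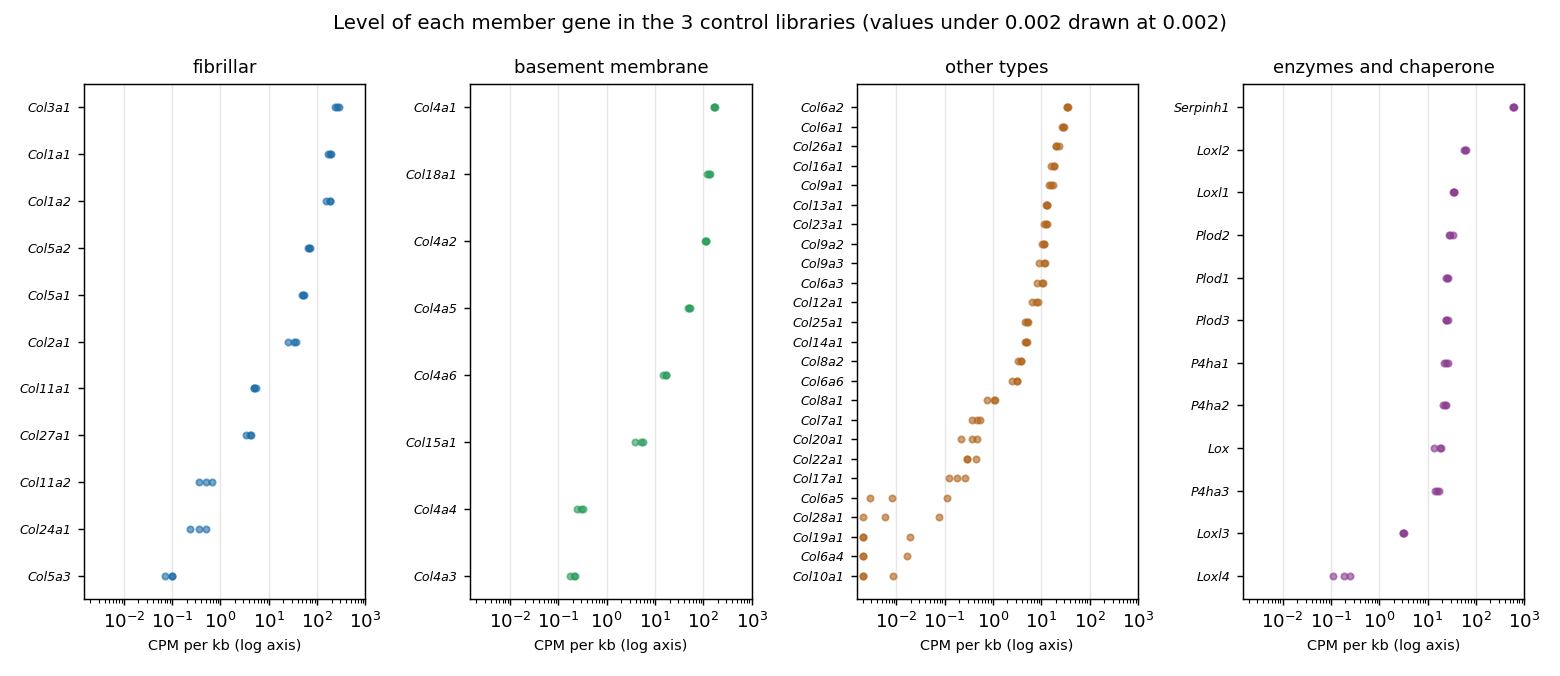
Level of each gene in the 3 control libraries, as CPM per kilobase of the coding transcript on a log axis, in 1 panel per class; each point is 1 library, and values under 0.002 are drawn at 0.002. The means of Serpinh1, Col3a1, Col1a1, Col1a2, Col4a1, Col18a1 and Col4a2 exceed 100 CPM per kilobase, and genes such as Col10a1 and Col6a4 stand near 0.

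Fibrillar collagens made up 0.418% to 0.502% of all counts in controls and 0.443% to 0.538% in CKO. Per kilobase of transcript, control levels were highest for Col3a1 (258 CPM), Col1a1 (184.5 CPM) and Col1a2 (174 CPM), the chains of types III and I, followed by Col5a2 (67.6 CPM) and Col5a1 (51.9 CPM) of type V, which starts fibril formation. Between control libraries the SD of the first 3 was 28.0, 13.7 and 18.6 CPM per kilobase. Col1a1 and Col1a2 differed by less than this spread, but within each control library Col1a1 was the higher (ratio 1.04, 1.11 and 1.04). The size of this ratio depends on the gene length used. Col1a1 measured 1125, 1002 and 1155 CPM in controls and 1602, 1172 and 1203 CPM in CKO. The groups did not overlap, but CKO 1 stood far above the other CKO libraries, and the log2 fold change of 0.28 was not called (SE 0.14, adjusted p = 0.408). Col1a2 measured 975, 816 and 999 CPM in controls and 1239, 935.5 and 951 CPM in CKO (log2 fold change 0.16, SE 0.14, adjusted p = 0.658). Col3a1 measured 1432, 1285 and 1597 CPM in controls and 1586, 1275 and 1310 CPM in CKO (log2 fold change -0.05, SE 0.11, adjusted p = 0.876).

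Neither type V chain was called. Col5a2 was at -0.12 (SE 0.05, adjusted p = 0.275), the smallest adjusted p of the class, and Col5a1 at 0.01 (SE 0.05). Col2a1, the fibrillar collagen of cartilage that is also made in cardiac cushions, measured 129, 172.5 and 188 CPM in controls and 93.1, 141 and 86.1 CPM in CKO. The value of CKO 2 lay between those of controls 1 and 2, and the log2 fold change of -0.61 carried an SE of 0.27 (adjusted p = 0.363). limma-voom called it lower (adjusted p = 0.0312), whereas DESeq2 did not (adjusted p = 0.203). Col11a1 (0.05) and Col27a1 (0.01) were near 0, and Col24a1 (0.54), Col11a2 (0.12) and Col5a3 (-0.53) were under 6 CPM in every library.

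No basement membrane collagen was called. Col4a1 and Col4a2, the chains of the common collagen IV trimer, start 21 bases apart on opposite strands of chromosome 8. Col4a1 measured 1110, 1130 and 1088 CPM in controls and 1164, 1172 and 1151 CPM in CKO (log2 fold change 0.07, SE 0.05, adjusted p = 0.499). Col4a2 measured 728.5, 743 and 709 CPM in controls and 781, 802 and 804 CPM in CKO (log2 fold change 0.13, SE 0.05, adjusted p = 0.142). For both genes each CKO value lay above each control value, by a small margin. Col4a5 (0.05, SE 0.05) and Col4a6 (-0.03, SE 0.07), neighbours on the X chromosome, overlapped between groups. Col4a3 and Col4a4, known from the kidney filter, start 72 bases apart on chromosome 1 and were low. Col4a3 had 73, 72 and 56 counts in controls and 18, 40 and 37 counts in CKO. These groups did not overlap, and the fitted log2 change was -1.01 (SE 0.35, adjusted p = 0.124), while Col4a4 was at -0.32 (SE 0.25, adjusted p = 0.557).

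The multiplexins XV and XVIII sit at the border of basement membranes. Col18a1, from which the fragment endostatin is cut, measured 683, 721 and 764 CPM in controls and 585, 693 and 590 CPM in CKO. CKO 1 and 3 lay below all controls and CKO 2 within them, and the log2 fold change was -0.21 (SE 0.06, adjusted p = 0.0734). It was called by DESeq2 (adjusted p = 0.0256) and, without the library labelled CKO 2, by edgeR (log2 fold change -0.30, adjusted p = 0.000469). Summed markers of endothelium and endocardium, which line these membranes, were at 1487 to 1570 CPM in controls and 1249 to 1469 CPM in CKO. Of these 10 markers 3 were called lower and none higher, beside 1.07% and 3.03% of all tested genes. Their part in the value of Col18a1 was not tested. Col15a1 was at -0.15 (SE 0.21, adjusted p = 0.800).

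Collagen VI, which forms beaded filaments next to cells, rose in its alpha 1 and alpha 2 chains. Col6a1 (chromosome 10, 76708792 to 76726168) measured 117.6, 111.6 and 124.2 CPM in controls and 177, 138.8 and 162.1 CPM in CKO, a log2 difference of 0.44 (SE 0.08, adjusted p = 0.00421). Col6a2 (chromosome 10, 76595762 to 76623630), which lies 85161 bases from Col6a1 on the same strand, measured 137.8, 139.5 and 135.5 CPM in controls and 194.2, 166.5 and 175 CPM in CKO (log2 fold change 0.38, SE 0.06, adjusted p = 0.000884). Neither gene overlapped between groups, and CKO 2 was the lowest CKO library for both. Both calls stood whichever of the 6 libraries was dropped. They were lost when the ribosomal RNA share entered the fit (adjusted p = 0.240 and 0.249), and that of Col6a1 also with Y-linked expression in the fit (adjusted p = 0.0563). Col6a3, the third chain of the trimer, measured 104, 82.4 and 112 CPM in controls and 126, 105 and 110 CPM in CKO, with overlapping groups and a log2 difference of 0.19 (SE 0.12, adjusted p = 0.481). Col6a6 was at 0.00 (SE 0.14), and Col6a5 reached at most 1.04 CPM.

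Fibril-associated collagens were called in both directions. Col22a1, known from junctions such as that of muscle with tendon, had the largest log2 fold change of the 52 tested genes. Col22a1 (chromosome 15, 71795795 to 72034227) had 102, 154 and 96 counts in controls and 450, 257 and 402 counts in CKO, or 2.56 to 3.999 CPM against 7.47 to 12.4 CPM. The lowest CKO library stood well above the highest control, and the log2 fold change was 1.72 (SE 0.22, adjusted p = 0.000175). Dropping any 1 of the 6 libraries left the adjusted p at 0.00367 or less. When the ribosomal RNA share entered the fit, the log2 fold change was 1.69 and the adjusted p 0.0814. Col12a1 (chromosome 9, 79598991 to 79718831), a collagen of tissues under tension, measured 96.6, 73.7 and 88.5 CPM in controls and 119, 104 and 119 CPM in CKO. Its log2 fold change was 0.40 (SE 0.09, adjusted p = 0.0266), and 3 of the 6 leave-one-out fits called it. It was not called without control 3, CKO 1 or CKO 3 (adjusted p up to 0.162), nor with Y-linked expression in the fit (adjusted p = 0.118).

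Collagen IX coats collagen II fibrils in cartilage, and its alpha 1 chain fell. Col9a1 (chromosome 1, 24177610 to 24252684) measured 60.5, 54.4 and 68.4 CPM in controls and 40.2, 45.3 and 33.7 CPM in CKO. The groups did not overlap, and the log2 fold change was -0.62 (SE 0.11, adjusted p = 0.00866). Of the 6 leave-one-out fits, 5 called it, the exception being the one without CKO 1 (adjusted p = 0.0865), and the call was lost when the ribosomal RNA share entered the fit (adjusted p = 0.320). The other chains were not called, with Col9a3 at -0.31 (SE 0.12, adjusted p = 0.171) and Col9a2 at -0.19 (SE 0.09, adjusted p = 0.270). Of 8 tested cartilage markers none was called by edgeR, DESeq2 or limma-voom, and none had an unadjusted p under 0.05 in edgeR. Summed, the 9 cartilage markers in the table were at 196 to 236 CPM in controls and 166 to 208 CPM in CKO. Most of that sum was Hapln1, with a mean of 151 CPM in controls and 129 CPM in CKO. Acan (means 6.77 and 3.85 CPM) was low, and the defining cartilage gene Matn1 had at most 0.0267 CPM in any library. The part of these markers in the value of Col9a1 was not tested. Col14a1 was at 0.26 (SE 0.10, adjusted p = 0.156), Col16a1 at 0.16 (adjusted p = 0.181) and Col20a1 at 0.00.

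**Figure D3:**
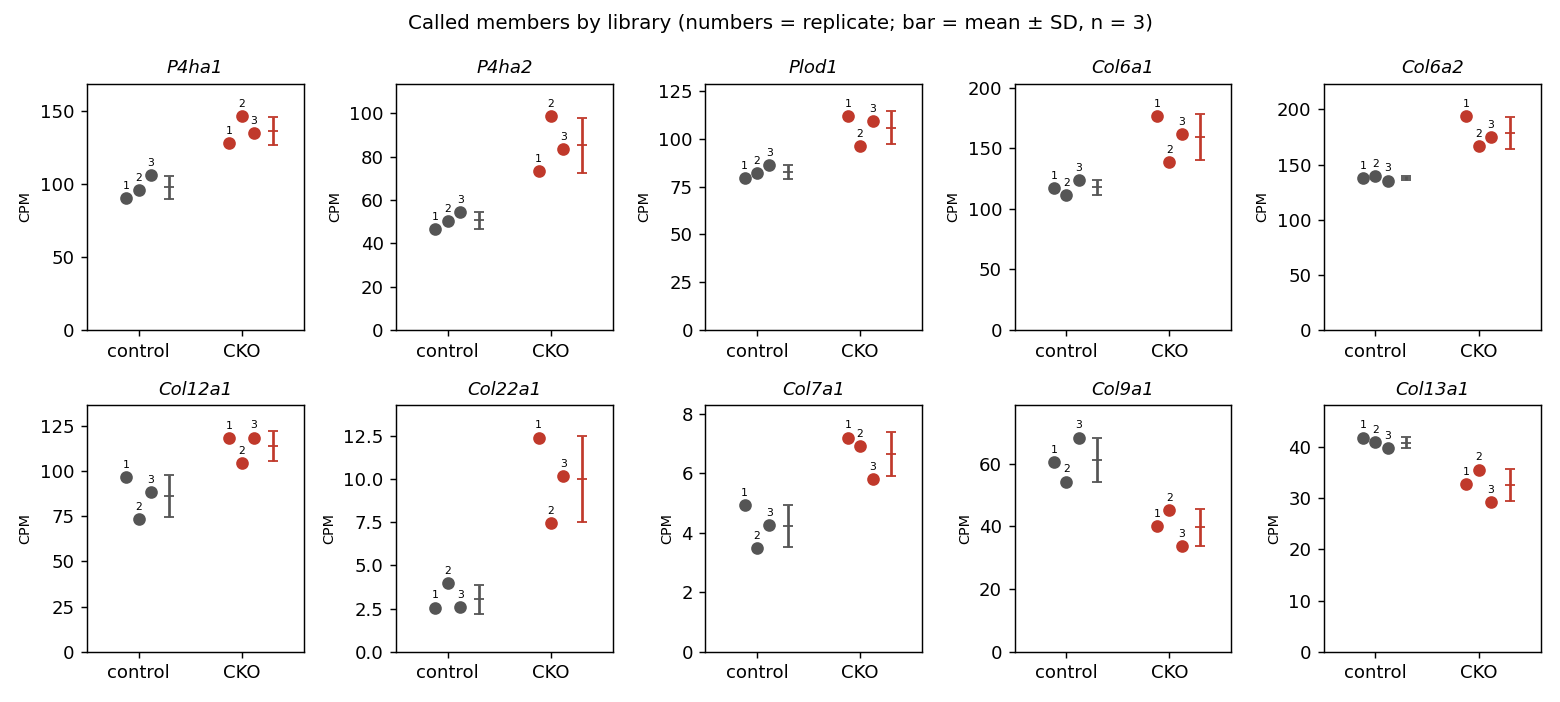
CPM of the 10 called genes in each library, with replicate numbers above the points and mean ± SD (n = 3) beside them; vertical axes start at 0. In all 10 panels the control (grey) and CKO (red) points do not overlap, and CKO 2 is the highest CKO point for P4ha1, P4ha2, Col9a1 and Col13a1 but the lowest for Plod1, Col6a1, Col6a2, Col12a1 and Col22a1.

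Of the remaining types, Col7a1 was called higher and Col13a1 lower. Col7a1, the anchoring fibril collagen of skin, measured 4.92, 3.48 and 4.27 CPM in controls and 7.20, 6.91 and 5.81 CPM in CKO (log2 fold change 0.65, SE 0.18, adjusted p = 0.0478). This call sat at the threshold and was made in none of the 6 leave-one-out fits (adjusted p from 0.0553 to 0.215). Col13a1 (chromosome 10, 61838236 to 61979108), a transmembrane collagen of cell adhesion sites, measured 41.9, 40.9 and 39.8 CPM in controls and 32.7, 35.6 and 29.3 CPM in CKO. The log2 fold change was -0.33 (SE 0.08, adjusted p = 0.0226), and it was called only without CKO 1 (adjusted p = 0.0366) or CKO 2 (0.00178), and not in the other 4 such fits (adjusted p up to 0.166). The other transmembrane genes were not called, namely Col23a1 (-0.17, adjusted p = 0.256), Col25a1 (-0.09) and Col17a1, which was at -1.45 (SE 0.48, adjusted p = 0.1005) from at most 54 counts in a library. The network collagens Col8a2 (0.28, adjusted p = 0.173) and Col8a1 (-0.41, adjusted p = 0.361) and the further gene Col26a1 (0.06) did not pass either.

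The 4 genes below the filter were Col10a1, Col19a1, Col28a1 and Col6a4. Col10a1, the collagen of growth plate cartilage, had 0, 0 and 1 counts in controls and 6, 7 and 7 counts in CKO. With no filter the edgeR test did not call it (adjusted p = 0.223), and at these counts no fold is given. Col19a1 had at most 8 counts, Col28a1 at most 12 and Col6a4 at most 5 in a library.

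Chains of the same trimer or fibril were then compared within each library as ratios of counts per kilobase, so that library scaling cancels. With 3 libraries against 3, the exact two-sided permutation test cannot go below p = 0.1, so none of the 7 ratios could pass. Col3a1 to Col1a1 was 1.36, 1.37 and 1.47 in controls and 1.05, 1.16 and 1.16 in CKO. Each CKO library had less type III relative to type I message than each control (log2 difference -0.32, exact p = 0.1, adjusted p = 0.14). Col1a1 to Col1a2 was 1.04, 1.11 and 1.04 in controls and 1.17, 1.13 and 1.14 in CKO (log2 difference 0.11). Col5a1 to Col5a2 was 0.763, 0.755 and 0.783 in controls and 0.828, 0.798 and 0.885 in CKO (log2 difference 0.12). Col4a1 to Col4a2 was 1.49 ± 0.00691 in controls and 1.43 ± 0.0283 in CKO (SD, n = 3), a log2 difference of -0.06. Col8a1 to Col8a2 was 0.203, 0.323 and 0.290 in controls and 0.188, 0.181 and 0.130 in CKO (log2 difference -0.70). These 5 ratios did not overlap between groups, and each had an exact p of 0.1. Col6a1 to Col6a2 (log2 difference 0.06, exact p = 0.6) and Col6a1 to Col6a3 (0.23, exact p = 0.2) overlapped.

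**Figure D4:**
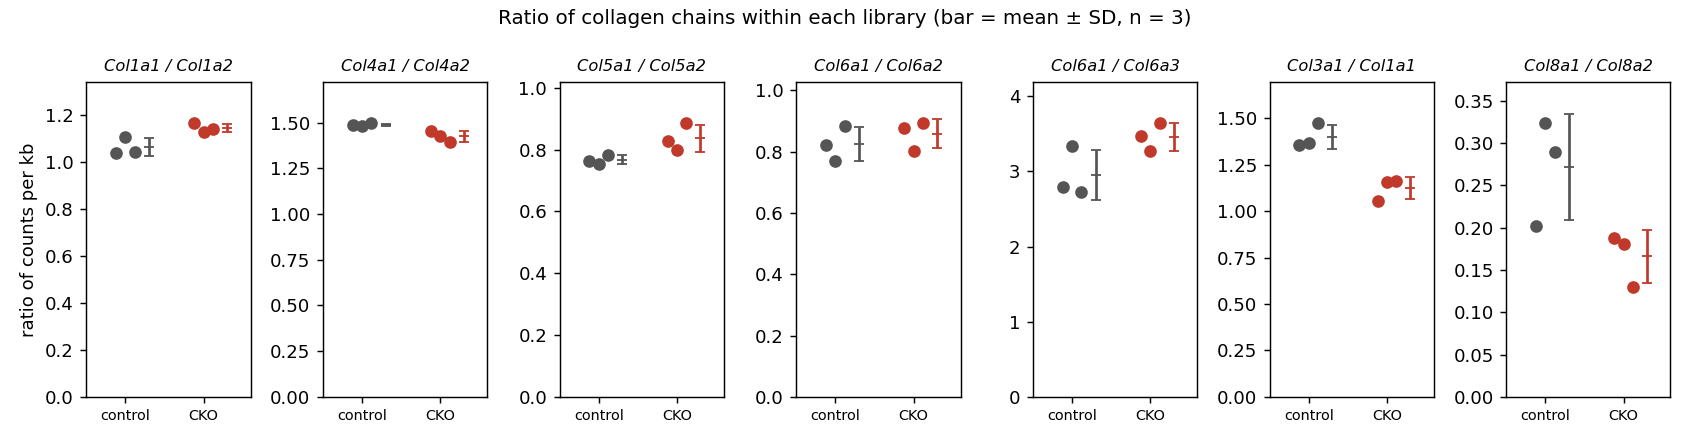
Ratio of counts per kilobase between 2 collagen genes in each library, 1 panel per ratio, with mean ± SD (n = 3); vertical axes start at 0. In the panel of Col3a1 over Col1a1 the CKO points (1.05 to 1.16) lie below the control points (1.36 to 1.47), and in the panel of Col6a1 over Col6a2 the groups overlap.

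Fibrillar genes often shared their extreme library. Of the 11 fibrillar genes, 10 were lowest among the controls in control 2, 9 were lowest among the CKO libraries in CKO 2, and 7 were highest in CKO 1. Of the 52 tested genes of all classes, 25 were lowest among the controls in control 2. Among the CKO libraries, 24 of the 52 were lowest in CKO 2. The same was not counted over all genes. Summed fibrillar CPM was 4639, 4176 and 4939 in controls and 5492, 4437 and 4455 in CKO, so that CKO 2 and 3 lay within the range of the controls. Enzyme and chaperone genes summed to 2276, 2324 and 2418 CPM in controls and to 2689, 2538 and 2467 CPM in CKO, with no overlap. As an unscaled share of all counts the groups did overlap, since CKO 3 (0.24551%) lay just below control 3 (0.24559%). Most of this sum was Serpinh1, with a mean of 1356 CPM in controls and 1434 CPM in CKO. Summed collagen IV CPM did not overlap either (2253 to 2317 CPM in controls and 2384 to 2437 CPM in CKO). The 10 markers of fibroblasts and cushion mesenchyme summed to 1045 to 1253 CPM in controls and 926 to 970 CPM in CKO, with 2 called lower (Postn and Meox1) and none higher. Postn, also among the fibril partners below, was the largest part of that sum, with means of 596 CPM in controls and 488 CPM in CKO. Log2 fold changes were negative for 8 of these 10 markers and positive for Tcf21 (0.08) and Prrx1 (0.12). The genes listed as smooth muscle markers summed to 2538 to 2579 CPM in controls and 3328 to 3718 CPM in CKO, with 3 of 10 called higher. Most of that sum was Acta2, Des and Cnn1. Their means were 1208, 636 and 311 CPM in controls and 1891, 735 and 430 CPM in CKO. Myh11 (means 4.40 and 13.6 CPM) and Tagln (1.37 and 2.06 CPM) were low. Rgs5 (-0.25) and Abcc9 (-0.05) had negative log2 fold changes and were not called. The 8 epicardial markers were at 413 to 429 CPM in controls and 421 to 451 CPM in CKO, with 1 called higher. Macrophage markers summed to 133 to 137 CPM in controls and 167 to 189 CPM in CKO, with 4 of 10 called higher and none lower. Of all tested genes, 3.03% were called higher and 1.07% lower. Whether these lists track the cell types they are named for, and the part of those cell types in the collagen values, was not tested.

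**Figure D5:**
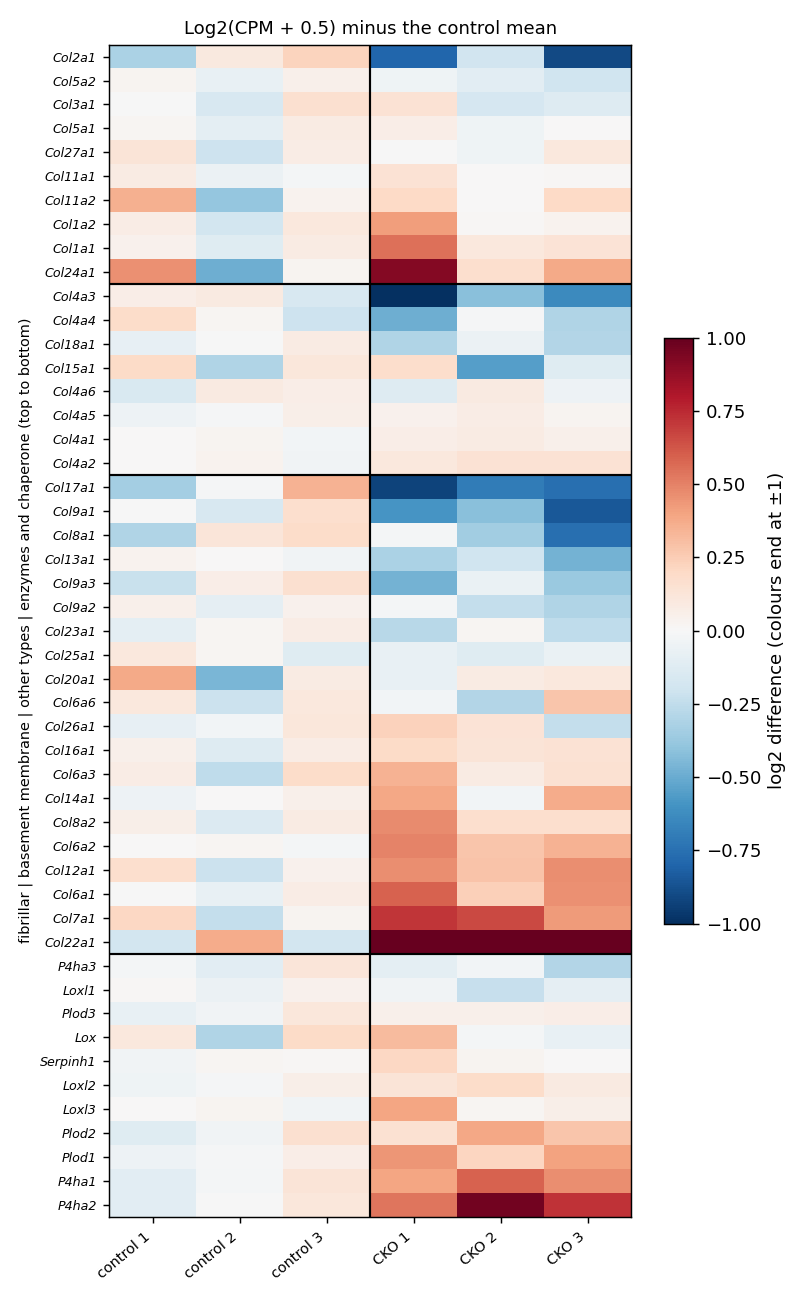
Log2(CPM + 0.5) minus the mean of the 3 controls for the 49 tested genes with a control mean of at least 1 CPM, with genes in rows by class and libraries in columns; red is above and blue below the control mean, and colours end at 1 and -1. The rows of Col22a1, P4ha2 and P4ha1 are red in all 3 CKO columns, Col2a1 is blue in all 3, and Col1a1 and Col1a2 are reddest in CKO 1.

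Among genes that receive or cut collagen 9.09% were called, and among genes that accompany it 8%, beside 4.1% of all tested genes. Groups did not overlap for 36.4% and 32% of them, beside 22.1% of all tested genes. Of 22 tested genes of collagen turnover and collagen receptors, Adgrg1, a receptor of collagen III, was higher (log2 fold change 0.55, SE 0.13, adjusted p = 0.0199). Itga2, a collagen-binding integrin subunit, was lower (-0.49, SE 0.12, adjusted p = 0.0184), while Itga1, another, was at 0.21 (adjusted p = 0.0514). Of 25 partners of fibrils and basement membranes, 2 were lower, both of which encode fasciclin-domain matrix proteins. Postn (periostin) measured 549, 571 and 667 CPM in controls and 473, 507 and 483 CPM in CKO (log2 fold change -0.29, SE 0.06, adjusted p = 0.0156), and Tgfbi was at -0.23 (SE 0.05, adjusted p = 0.0167). These 4 called genes were each called in 2 or 3 of the 6 leave-one-out fits. TGF-beta is a known inducer of collagen genes. Of 19 of its ligands, receptors and targets 4 were called higher and none lower, beside 3.03% and 1.07% of all tested genes. Tgfb3 was at 0.48 (SE 0.07, adjusted p = 0.000692), and the target genes Ccn2 (0.86, adjusted p = 0.00371), Ccn1 (0.65, adjusted p = 1.78e-05) and Smad7 (0.37, adjusted p = 0.00346) made up the rest. All 4 were called in each of the 6 leave-one-out fits. Tgfbr2, a receptor gene, was at -0.20 and not called (adjusted p = 0.0991). Groups were fully separate for 9 of these 19 genes, 6 higher and 3 lower in CKO. A link between this list and the collagen values was not tested. The median log2 fold changes of these 3 lists were 0.09, -0.04 and 0.01.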

How the data were processed

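Poly(A) RNA of 6 libraries of E12.5 mouse hearts (NEBNext Ultra RNA kit, Illumina HiSeq) was measured as raw read counts per gene symbol, deposited by the authors as 1 table and named raw counts per the labels. The submitters' processing notes name the build mm10. The sources used here do not give aligner, counting program, annotation or strand setting, so reads of overlapping genes cannot be told apart. Among the 10 called genes, at most 36 bases are shared with another gene's exons. Groups came from sample titles.

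Genes passing filterByExpr (minimum count 10, total 15) were fitted with edgeR 4.0.16 in R 4.3.3 (TMM, robust quasi-likelihood with legacy = FALSE, two-sided, Benjamini-Hochberg over 17557 genes). SE was the log2 fold change over the square root of F. DESeq2 1.42.0 and limma-voom (limma 3.58.1) were alternatives. Counting error is small at these totals except for genes of few counts. Levels per kilobase used the GENCODE M21 transcript with the longest coding sequence, which also gave positions. Chain ratios were tested by exact permutation with adjustment over 7. The script was tested on simulated counts. Members and lists were chosen with earlier results of these data known, so they are not independent evidence. Named were all called genes, and by class those of smallest adjusted p and highest level; from each companion list, called genes or those of smallest adjusted p. 1 gene of a companion list is not reported here and was left out of that list's counts.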

Additional observations from a re-analysis of the deposited data

How the results depend on the processing

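With the ribosomal RNA share as a covariate, 0 collagens were called higher and 0 lower (5 and 2 in the reported fit), and over all genes 56 were called in place of 720. With the Y-linked covariate, 2 collagens were higher and 1 lower, and over all genes 307 were called. With no filter, 4 collagens were lower (Col18a1 and Col9a3 in addition) and 1251 genes were called in all. With the replicate number as a block, 4 collagens were higher and 1 lower, since Col7a1 and Col9a1 were not called (adjusted p = 0.0567 and 0.0532) and Plod2 was (0.0293). The labels do not say that numbers pair libraries, and same-numbered libraries did not deviate together (correlations of -0.002, 0.017 and 0.001). Leave-one-out fits gave 3 to 5 collagens higher and 1 to 5 lower. Without the library labelled CKO 2, 13 of the 52 genes were called, and without CKO 1, 8 were; over all genes these fits called 1552 and 546. All 10 called genes kept their direction in every alternative fit, and 6 (Col22a1, Col6a1, Col6a2, P4ha1, P4ha2 and Plod1) were called in all 6 leave-one-out fits. Of the 42 genes not called, 13 changed sign in at least 1 alternative. Among enzymes, 2 to 4 were called higher and 0 lower in every alternative. Why the covariates remove calls was not tested. The legacy edgeR fit and the union of exons as gene length were chosen after seeing the data. The union length put the mean control ratio of Col1a1 to Col1a2 at 2.23 in place of 1.06, and differences between groups do not depend on length. DESeq2 called 1068 genes, among them 12 of the 52.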
